A study of Mus musculus with 4 samples.

Results

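Gm43110 is a short processed pseudogene of Get4, and Get4 belongs to the machinery that inserts tail-anchored proteins into membranes. The 7 genes described here were Gm43110, Get4, Bag6, Ubl4a, Asna1, Camlg and Sgta, taken from a table of 56035 gene rows by their names. Camlg was found under its identifier (ENSMUSG00000021501), because its row carries the symbol Caml, and it is called Caml below. The set was chosen because Gm43110 was listed at 0 in both wild-type (WT) libraries and above 40 TPM in both K823R libraries. The values of Gm43110 in that contrast are therefore given as a description, and no p-value is reported for it. The other 6 genes were chosen for what they are known to do.

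RNA was sequenced from the trigeminal ganglion, which holds the sensory neurons of the face and their glia, taken from 8-week-old C57BL/6 males. The K823R group carried a Trpv1 knock-in allele in which a lysine of the channel is replaced by arginine, with a genotype label that reads TRPV1 K823R transgenic, and the WT group was made up of littermates with no other allele named. Each group had 2 libraries, and the protocol mentions 2 pairs of ganglia without saying whether they were pooled. Nothing in the labels ties a library to 1 animal, so p-values reflect no more than the spread among the libraries, and that spread may be technical.

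Tail-anchored proteins carry a single membrane-spanning stretch at their C-terminal end, which leaves the ribosome only when translation stops. They therefore cannot use the co-translational route through the signal recognition particle and are handed over afterwards. In mammals SGTA binds the new tail, the BAG6-UBL4A-GET4 complex passes it to the ATPase ASNA1 (also called TRC40 or GET3), and the receptor made of GET1 (WRB) and CAML at the endoplasmic reticulum (ER) receives it. Neurons depend on such proteins for vesicle fusion, since many SNARE proteins are tail-anchored.

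The sequence of Gm43110 is shown because all of it is also Get4 sequence. In GENCODE M21 (GRCm38) the pseudogene lies on the minus strand of chromosome 5 and has 226 bases. Capitals mark the bases that Get4 carries in its exons 7 and 9, and lower case marks those of exon 8.
Gm43110 (chr5:22472767-22472992, GRCm38, minus strand): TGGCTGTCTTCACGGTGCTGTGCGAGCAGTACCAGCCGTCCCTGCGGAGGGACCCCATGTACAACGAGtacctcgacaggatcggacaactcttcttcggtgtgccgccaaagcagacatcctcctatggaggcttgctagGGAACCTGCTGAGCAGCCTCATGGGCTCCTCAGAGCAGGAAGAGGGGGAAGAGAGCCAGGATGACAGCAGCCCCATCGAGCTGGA
The next 30 bases are those of Get4 just before this stretch, which the pseudogene's transcript does not hold.
Get4-201, bases 866 to 895: ttctgctgctggccgtggacggtggcaagc

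Gm43110 matched Get4 without a single substitution over its whole length. In the transcript Get4-201, of 2107 bases and 9 exons, the match covered bases 896 to 1121. The coding sequence ends at base 1122, before the stop codon, so the match stopped 1 base short of the last sense codon's end. It made up 23.0% of the coding sequence and 10.7% of the transcript. The first 68 bases come from exon 7 (chromosome 5, 139267235 to 139267302), the next 73 from exon 8 (139267403 to 139267475) and the last 85 from exon 9 (139268981 to 139269065). The pseudogene joins the 3 exons without introns, as a copy of spliced RNA does. The same 226 bases also occurred whole in 2 other Get4 transcripts and in no transcript of any other gene. A read pair that stays within the stretch could thus have come from either locus, whereas one that reaches the 30 bases above extends beyond the annotated Gm43110 transcript. Whether sequence like those 30 bases flanks the pseudogene or lies elsewhere in the genome was not analysed here. For Bag6, Ubl4a, Asna1, Caml and Sgta, the search of annotated transcripts found no copy of at least 95% identity over 90% of the copy's transcript.

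Gm43110 (ENSMUSG00000105081) was listed at 0 TPM in WT replicate 1 and in WT replicate 2. It stood at 40.54 TPM in K823R replicate 1 and at 51.52 TPM in K823R replicate 2. TPM is a transcript abundance per length, with an equal total for each library. No fold is given, since the WT value is a listed 0 and the table holds no read counts. Over the whole matrix, 2 rows were at 0 in both WT libraries and at 40 TPM or more in both K823R libraries, and 0 rows showed the opposite. The other row was Gm1943, a processed pseudogene of 174 bases, at 232.31 and 67.46 TPM in K823R. It too lies whole and without mismatch inside a protein-coding transcript, that of Wdr70, whose own row averaged 60.5 TPM over the WT and 61.4 TPM over the K823R libraries. Just outside the level of 40 TPM, the row at 0 in both WT libraries with the next highest lower K823R value was the antisense transcript Gm13299, at 9.25 and 17.85 TPM. The level of 40 TPM chose the set, so the count of 2 rows against 0 is not independent of Gm43110. At 1 TPM or more in both libraries of the other genotype, 17 rows were at 0 in WT and 20 at 0 in K823R. At 5 TPM or more these numbers were 4 and 3.

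**Figure D1:**
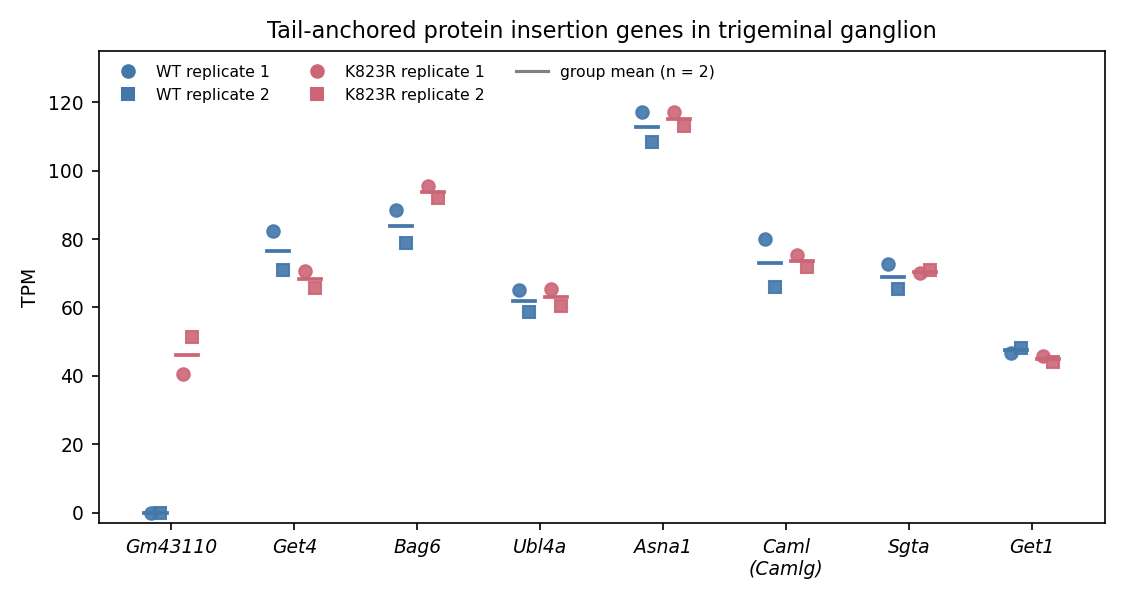
TPM (vertical axis) of the 7 genes and of Get1 in the 4 libraries, with circles for replicate 1, squares for replicate 2, blue for WT, red for K823R and bars for the mean of 2 libraries. Gm43110 is at 0 in both WT libraries and at 40.54 and 51.52 TPM in K823R, while the groups of the other genes lie close together.

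The length of the row bears on what such values stand for. A 226-base transcript can yield only fragments of at most its own length, and the library protocol selected cDNA of 200 to 300 bases. The lower quartile of values above 0 was under 1 TPM in every length class above 300 bases and higher in the shorter classes. In rows of 200 to 250 bases the lower quartile of values above 0 was 12.8 and 8.10 TPM in the WT libraries and 15.5 and 11.5 TPM in the K823R libraries. In rows over 1000 and up to 2000 bases it was 0.33 to 0.37 TPM. How many read pairs stand behind 40.54 or 51.52 TPM cannot be read from TPM, and the precision of these values is unknown.

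**Figure D2:**
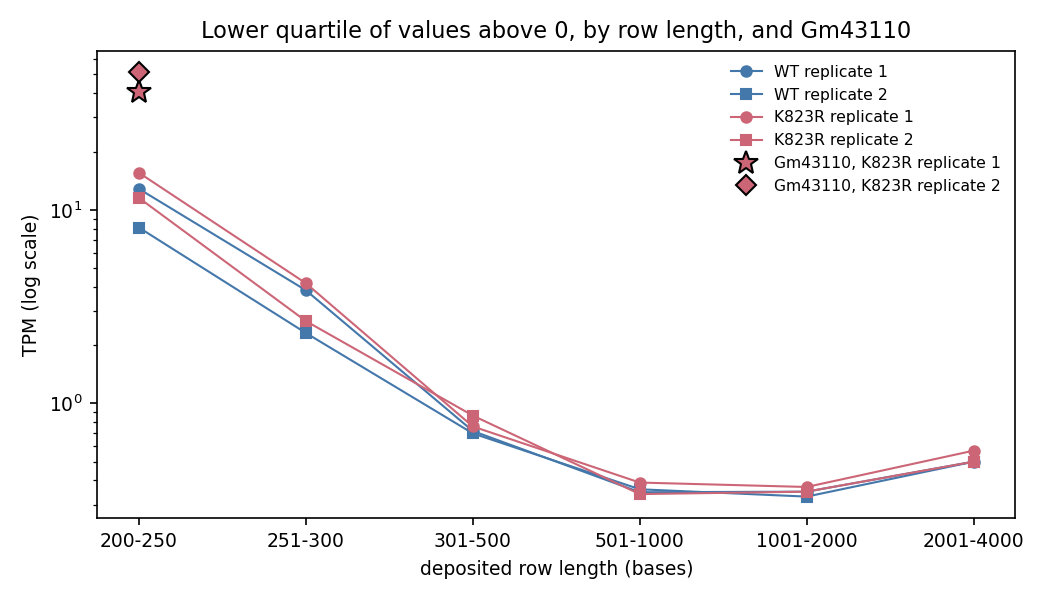
Lower quartile of the values above 0 (TPM, log axis) in rows grouped by deposited length in bases, 1 line per library, with the K823R values of Gm43110 as a star (replicate 1) and a diamond (replicate 2). The lines fall from 8.10 to 15.5 TPM at 200 to 250 bases to under 1 TPM above 300 bases. Both values of Gm43110 lie above them, which its choice for values above 40 TPM in K823R fixed in advance.

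Short rows also differed between replicates of the same genotype. Between the WT libraries, 30 rows were at 0 in replicate 1 and at 10 TPM or more in replicate 2, and 32 rows were so the other way round. In K823R these numbers were 34 and 38. Rows under 300 bases made up 76.7% to 82.4% of them. These counts set 1 library against 1. By the stricter criterion of both libraries of each genotype, 2 rows were at 0 in both WT libraries and at 10 TPM or more in both K823R libraries, and 1 row, the 387-base Gm43590, was so in the opposite direction. Of 103 rows of 200 to 250 bases above 0 in some library, 77.7% were at 0 in another, against 18.7% of rows over 2000 and up to 4000 bases. The 97 tested rows of 200 to 250 bases differed between WT replicates by a median of 1.02 on the log2(TPM + 1) scale, and between K823R replicates by 1.12. For the 5782 tested rows over 2000 and up to 4000 bases these medians were 0.15 and 0.12. The part of row length in the values of Gm43110 was not tested.

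Gm43110 is 1 of 93 processed pseudogene rows in the table that lie whole and without mismatch inside a protein-coding transcript of another gene. Their transcripts had 100 to 500 bases in GENCODE M21. The search did not ask whether a row overlaps the matching gene in the genome, so some of them may not be separate copies. Of these rows, 33 were at 0 in every library, 37 were above 0 in every library and 23 were above 0 in 1 to 3 libraries. Among the 38 under 300 bases, 13 were of this last kind, and among the 55 longer ones, 10 were. Both K823R libraries and neither WT library were above 0 for 2 rows, Gm43110 and Gm1943. Both WT libraries and neither K823R library were above 0 for 2 others, Gm10241 (a copy within Sumo2, at 19.5 and 0.64 TPM) and Gm10045 (at 1.46 and 0.08 TPM). A further 12 rows were above 0 in a single library. Gm12112, a copy within Tcea1 of 231 bases, was at 12.73 TPM in WT replicate 1 and at 0 in the other 3 libraries.

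Get4 (ENSMUSG00000025858, chromosome 5, 139252324 to 139270051, plus strand) encodes the subunit that ties the BAG6 complex to ASNA1. Its row was at 82.21 and 70.84 TPM in the WT libraries and 70.75 and 65.72 TPM in the K823R libraries. Both K823R libraries were lower, but K823R replicate 1 and WT replicate 2 differed by less than the gap between replicates. The means were 76.5 ± 8.04 TPM and 68.2 ± 3.56 TPM (SD, n = 2 each). The log2 difference, taken as K823R minus WT of log2(TPM + 1), was -0.16 (standard error, SE, 0.103), with a 95% interval of -0.43 to 0.11 (limma, adjusted p = 0.918). Get4 shares its stretch with Gm43110, so its value is not independent of the choice of the set. As background, 1 of 15390 genes in the same fit (0.0065%) had an adjusted p below 0.05. That 1 gene was Gm43110, whose values chose the set, so the count is no test of that row. No other gene passed.

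Get4 and Gm43110 were then counted as 1 locus, with the TPM of each weighted by its deposited length. In units of Get4 length, the combined value stayed at 82.21 and 70.84 TPM for WT and came to 75.1 and 71.2 TPM for K823R. By deposited length the groups now overlapped. The log2 difference was -0.06 with SE 0.10 and a 95% interval of -0.32 to 0.20 (limma, adjusted p = 0.956), and its sign turned to 0.046 without WT replicate 1. On this weighting Gm43110 held 5.79% of the locus in K823R replicate 1 and 7.76% in K823R replicate 2. With effective lengths for fragments of 200 to 300 bases, taken as equally frequent, Gm43110 counts as 3.74 bases and Get4 as 1858 bases. The pseudogene's share was then 0.115% and 0.158%, the combined K823R values were 70.832 and 65.824 TPM, and the log2 difference was -0.16 (limma, adjusted p = 0.918). By effective length the groups thus did not overlap, although K823R replicate 1 (70.832 TPM) and WT replicate 2 (70.84 TPM) were nearly equal. The fragment lengths of these libraries were not measured here, and the 2 weightings give shares that differ by a wide margin. Whether the TPM of Gm43110 came from its own locus or from Get4 was not tested.

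The tested genes nearest to Gm43110 were above 0 in every library. In the annotation 0 genes overlap it, the nearest being an annotated 5S ribosomal RNA copy 42.3 kb away on the side of lower coordinates and Orc5 13.5 kb away on the other. Orc5, a subunit of the origin recognition complex, was at 31.84 and 29.48 TPM for WT, against 30.8 and 29.27 TPM for K823R. Reln, which encodes the extracellular signal reelin and lies 128 kb away, was at 45.88 and 54.42 TPM in the WT libraries and 52.05 and 59.97 TPM in the K823R libraries. The next tested genes were Psmc2, a proteasome ATPase, with log2 difference 0.02, and the non-coding A930003O13Rik with 0.21. Of the 10 nearest tested genes 5 were higher and 5 lower in K823R, between -0.21 and 0.23 on the log2 scale. None passed limma over all genes, and 0 had an unadjusted p under 0.05.

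The neighbours of Get4, more than 100 Mb away on the same chromosome, behaved likewise. Sun1, a nuclear envelope protein 2.48 kb from Get4, had a log2 difference of -0.003, and Adap1, 1.82 kb away on the other side, one of 0.03. The second neighbours Dnaaf5 and Cox19 had 0.18 and -0.07. Of 10 tested neighbours 7 were higher and 3 lower, 0 passed and 0 had an unadjusted p under 0.05.

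The partner subunits of the BAG6 complex were measured at levels close to that of Get4. Bag6 (ENSMUSG00000024392, chromosome 17, 35135178 to 35147322) encodes the scaffold that holds the complex and keeps exposed membrane segments soluble. It was at 88.48 and 78.96 TPM for WT, against 95.57 and 91.86 TPM for K823R, with both K823R libraries above both WT libraries. The log2 difference was 0.16 with SE 0.0875 and a 95% interval of -0.07 to 0.39 (limma, adjusted p = 0.918). Ubl4a (ENSMUSG00000015290, chromosome X, 74365718 to 74373218) encodes the ubiquitin-like subunit that SGTA docks onto. It was at 65.0 and 58.61 TPM in the WT libraries and 65.37 and 60.48 TPM in the K823R libraries, and the groups overlapped (log2 difference 0.03, 95% interval -0.22 to 0.27, limma adjusted p = 0.986). In the annotation 258 exon bases of Ubl4a are shared with Slc10a3 on the same strand, whose row was at 3.89 and 4.5 TPM for WT, against 5.03 and 5.85 TPM for K823R, so reads there can be given to either gene.

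The values of the delivery factor Asna1, the receptor subunit Caml and the first chaperone Sgta overlapped between the genotypes. Asna1 (ENSMUSG00000052456, chromosome 8, 85017931 to 85025281), the ATPase that carries the tail to the ER, was at 117.17 and 108.48 TPM in the WT libraries and 117.2 and 112.93 TPM in the K823R libraries. The log2 difference of 0.03 had a 95% interval of -0.17 to 0.23 (limma, adjusted p = 0.977). Caml (chromosome 13, 55623005 to 55632411), the receptor subunit that binds the ATPase, was at 80.13 and 66.08 TPM for WT, against 75.38 and 71.73 TPM for K823R. Both K823R libraries fell between the WT libraries, and the log2 difference was 0.01 with a 95% interval of -0.29 to 0.32 (limma, adjusted p = 0.992). Sgta (ENSMUSG00000004937, chromosome 10, 81044075 to 81060181), the co-chaperone that captures tails first, was at 72.79 and 65.27 TPM in the WT libraries and 69.95 and 71.04 TPM in the K823R libraries. Its K823R libraries also fell between the WT libraries, with a log2 difference of 0.03 and a 95% interval of -0.19 to 0.26 (limma, adjusted p = 0.977). A p above the threshold does not show that these transcripts are equal in the genotypes, and each interval gives the differences that 2 libraries a group leave possible.

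Of the 6 genes other than Gm43110, the groups did not overlap for 2, Get4 (lower) and Bag6 (higher). Among all 15390 genes tested this was so for 34.0% (19.4% higher and 14.6% lower in K823R, as shares of all), so the share among the 6 is near the background. The signs of the 4 smaller differences are not fixed by these data. Without WT replicate 2, Ubl4a, Asna1, Caml and Sgta were at -0.05, -0.03, -0.12 and -0.05. Without WT replicate 1 the Get4 difference shrank to -0.05 and the Bag6 difference widened to 0.24.

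The order of the levels was nearly constant. Asna1 was the highest of the 6 in every library and Bag6 the second, and Ubl4a was the lowest in every library. The highest exceeded the lowest by 1.79 to 1.87 times. Get4 ranked 3 of 6 in both WT libraries, 4 in K823R replicate 1 and 5 in K823R replicate 2, with Caml and Sgta as its neighbours. The values of these 3 genes overlapped in WT, and in K823R those of Get4 and Sgta overlapped while both Caml values lay above them. TPM is per length, so these levels can be set side by side. All 6 lay between the 82.2nd percentile of mean TPM (Ubl4a) and the 90.3rd (Asna1) among genes tested. Get1 (Wrb), the other receptor subunit, was lower at 46.84 and 48.29 TPM for WT, against 45.79 and 44.21 TPM for K823R.

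Ratios within a library do not depend on how libraries are scaled, and those of Get4 to its partners were examined after the values had been seen. Get4 over Bag6 was 0.929 and 0.897 in WT and 0.740 and 0.715 in K823R. Get4 over Ubl4a was 1.26 and 1.21 in WT and 1.08 and 1.09 in K823R. For 5 of the 6 partners (Bag6, Ubl4a, Asna1, Caml and Sgta) the ratio was lower in both K823R libraries than in both WT libraries, and for Get1 the groups overlapped. The same ordering held for Get4 over 7507 of the 15012 other tested genes above 0 in every library (50.0%), so it is not particular to these partners. With Gm43110 counted in by deposited length, the 5 ratios were still ordered that way (Bag6: 0.929 and 0.897 against 0.786 and 0.776). So were those over 4764 of the 15012 other genes (31.7%). Ratios by effective length were not computed. The partners share the Get4 values, so the 5 orderings are not separate observations.

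**Figure D3:**
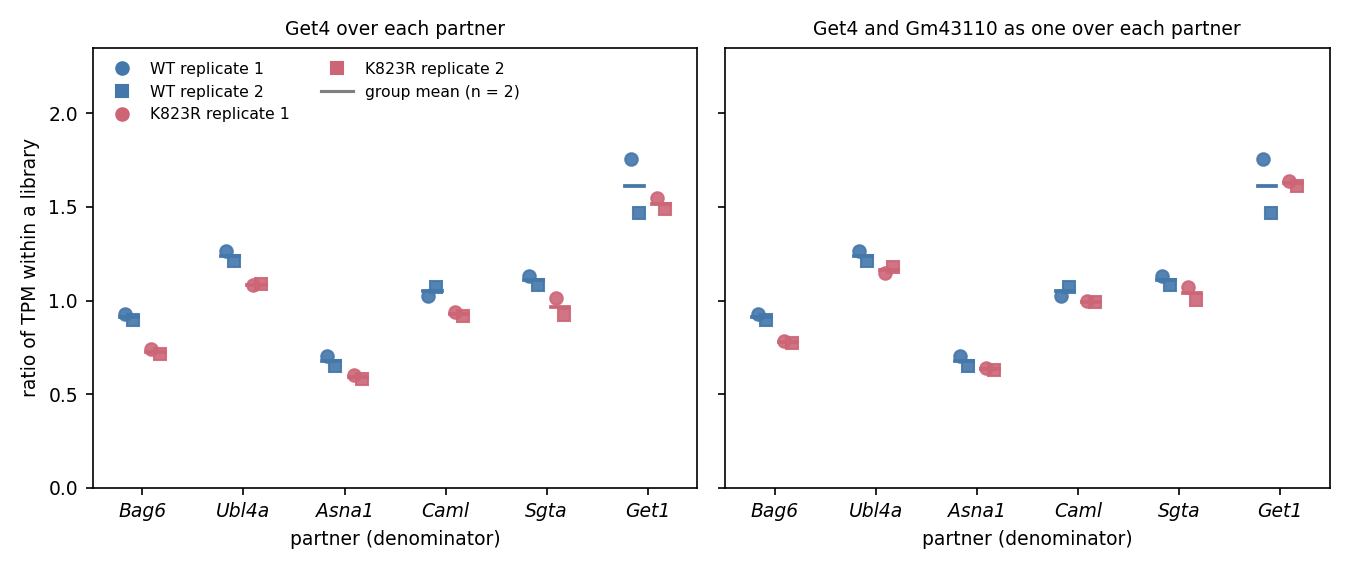
Ratio of TPM within a library (vertical axis) of Get4, and of Get4 with Gm43110 counted in by deposited length, over each of 6 partners, with circles for replicate 1, squares for replicate 2, blue for WT, red for K823R and bars for group means of 2. Get4 over Bag6 drops from 0.929 and 0.897 in WT to 0.740 and 0.715 in K823R, and from 0.929 and 0.897 to 0.786 and 0.776 with Gm43110 counted in.

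The GET route was also counted as a list of 9 genes. It holds Get4, Bag6, Ubl4a, Asna1, Caml and Sgta, whose values are given above, and adds Get1, Sgtb and Ubl4b. Of these 9 genes, 8 were tested, 6 were higher and 2 lower in K823R. By limma over all genes 0 passed, and 0 had an unadjusted p under 0.05. The counts thus mostly repeat the genes already described. Their median log2 difference was 0.03, beside a median of 0.03 and 57.4% higher over all genes tested. Sgtb, the neuronal relative of Sgta, was at 43.95 and 42.01 TPM in the WT libraries and 46.94 and 43.35 TPM in the K823R libraries. Get1 had a log2 difference of -0.08 with a 95% interval of -0.28 to 0.12 (limma, adjusted p = 0.932). Ubl4b, the intronless relative of Ubl4a known from testis, was at 0.06 TPM in WT replicate 1 and listed at 0 in the other 3 libraries.

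The ER membrane complex, an insertase that takes tail-anchored proteins with less hydrophobic tails, had 3 of 10 tested subunits higher and 7 lower (median log2 difference -0.03). None passed, and 0 had an unadjusted p under 0.05. Emc2, a cytosolic subunit, was at 145.62 and 144.28 TPM for WT, against 125.64 and 132.95 TPM for K823R (log2 difference -0.16, limma adjusted p = 0.918). Emc6 and Emc4, subunits of the membrane part, had differences of -0.16 and -0.14. Emc10 had the highest mean level of the list, with means of 228 TPM for WT and 242 TPM for K823R, and Emc1 the lowest, at 18.9 and 20.9 TPM.

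Genes of the signal recognition particle, the Sec61 channel and its partners, and the SND targeting route split 9 higher to 13 lower among 22 tested, with a median of -0.02. None passed over all genes, and 2 had an unadjusted p under 0.05, beside 4.76% of all genes tested. Srp54b, a copy of the GTPase of the signal recognition particle, was at 40.64 and 42.37 TPM in the WT libraries and 31.72 and 30.86 TPM in the K823R libraries (log2 difference -0.40, SE 0.0787, limma adjusted p = 0.918). Near-identical Srp54 copies are annotated in the mouse, so its share of the reads is uncertain. Srp19 had means of 113 and 94.3 TPM (-0.26), and Srprb, the membrane-anchored receptor subunit, 37.7 and 43.0 TPM (0.18). Srp14 was the most abundant of the list, at 408 and 399 TPM.

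Sec61g also has a pseudogene that shares its sequence. The gene encodes the tail-anchored gamma subunit of the Sec61 channel, and it was the lowest of its list at 15.63 and 14.65 TPM for WT, against 17.52 and 17.03 TPM for K823R. Gm10177, a processed pseudogene that lies without mismatch inside a Sec61g transcript, was listed at 181.1 and 193.44 TPM in the WT libraries and 145.47 and 155.85 TPM in the K823R libraries. The pseudogene row was thus above its parent's row in every library, and the division of reads between them was not tested.

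The list of BAG6-linked quality control also held genes with wider roles, such as the chaperone gene Hspa8. Of its 16 tested genes, 14 were higher. Over all genes tested 57.4% were higher. The median log2 difference of the list was 0.07, beside 0.03 over all genes tested. By limma over all genes 0 passed, and 0 had an unadjusted p under 0.05. Ubqln2, a ubiquilin that binds membrane proteins in the cytosol, had means of 48.2 and 51.6 TPM (log2 difference 0.10), the ER-associated Derl2 18.7 and 20.2 TPM (0.10), and the segregase Vcp 346 and 367 TPM (0.09). The chaperone Hspa8 was the most abundant, at 2788.41 and 2451.79 TPM for WT, against 2760.02 and 2675.22 TPM for K823R. Without WT replicate 2 the median of the list was -0.01.

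RNA differences of genes for tail-anchored proteins and their handling were likewise spread around 0. Which of these proteins use the GET route was not tested. Of 39 tested tail-anchored proteins of the secretory route, 21 were higher and 18 lower (median 0.02), 0 passed and 1 had an unadjusted p under 0.05. That gene was Ptpn1, a phosphatase held at the ER by its tail, at 20.68 and 18.44 TPM in the WT libraries and 26.6 and 29.26 TPM in the K823R libraries (log2 difference 0.49, SE 0.105, limma adjusted p = 0.918). The SNARE genes Vamp7 and Sec22b had differences of -0.16 and -0.17. Vamp1, the synaptic vesicle SNARE, was the most abundant at 568 and 540 TPM, and Stx3 the scarcest at 5.45 and 5.17 TPM. Of 22 genes for tail-anchored proteins of mitochondria and peroxisomes and their handling, 9 were higher and 13 lower (median -0.04), 0 passed and 0 had an unadjusted p under 0.05. The outer-membrane translocase subunits Tomm7, Tomm22 and Tomm5 had differences of -0.26, -0.12 and -0.10. Fis1, which takes part in mitochondrial fission, was the most abundant of these at 425 and 409 TPM, and the antiviral adaptor Mavs the scarcest at 5.42 and 6.08 TPM.

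The lists differed in how many of their tested genes had groups that did not overlap, with 19.4% of all genes tested lying apart and higher in K823R and 14.6% apart and lower. On the GET route 1 of 8 genes lay apart and higher and 2 lower, and in the ER membrane complex 2 of 10 higher and 4 lower. For the signal recognition particle, Sec61 and SND genes, 7 of 22 were higher and 6 lower. Of the 16 quality-control genes 1 was higher and 0 were lower. Of the 39 secretory tail-anchored proteins 4 were higher and 6 lower, and of the 22 of mitochondria and peroxisomes 3 were higher and 6 lower. These counts describe the lists, and their differences were not tested.

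**Figure D4:**
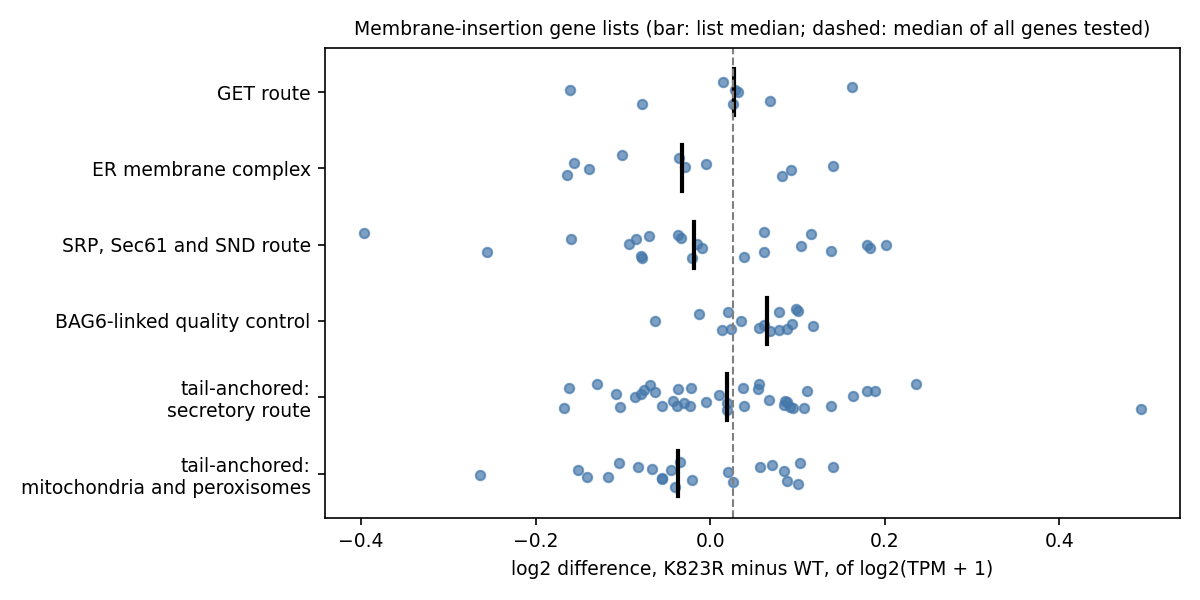
Log2 difference, K823R minus WT, of log2(TPM + 1) (horizontal axis) for each tested gene of 6 lists, with black bars at list medians and a dashed line at the median of all genes tested. The list medians lie between -0.04 and 0.07, with Ptpn1 at 0.49 and Srp54b at -0.40 farthest out.

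By a distance over the 4 libraries on the log2(TPM + 1) scale, the row most like Gm43110 was Arntl2, a clock transcription factor gene, at 1.09 and 1.67 TPM for WT, against 11.8 and 57.02 TPM for K823R (distance 2.46). Next came Gm13299 (2.50), Gm1943 (2.52), the pituitary hormone gene Gh (2.61) and an unnamed locus of 242 bases (2.98). Gh was at 0.25 and 1.15 TPM in the WT libraries and 17.08 and 12.03 TPM in the K823R libraries. The tested genes most like Get4 were Dexi, Ccm2 and Slc24a2, at distances of 0.099 to 0.111. With 4 libraries, such likeness describes these samples only.

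The libraries held the markers of the labelled tissue but differed in other cell types. All 9 sensory neuron markers were above 1 TPM in every library, summing to 6327 and 5440 TPM for WT and 6345 and 6057 TPM for K823R. The 5 satellite glia markers summed to 10928, 10690, 10721 and 11915 TPM in WT replicates 1 and 2 and K823R replicates 1 and 2, and the 5 Schwann cell markers to 11227, 13968, 13921 and 16601 TPM. Markers of central glia (5 genes) summed to 10.2 TPM in WT replicate 1 against 193 TPM in WT replicate 2 and 228 and 278 TPM in K823R, and Mog and Opalin were at 0 in at least 1 library. The 5 fibroblast and meningeal markers summed to 323 and 1022 TPM for WT and 2798 and 863 TPM for K823R, and the 5 macrophage markers to 49.8 and 78.6 TPM for WT and 82.0 and 106 TPM for K823R. The 5 pituitary markers summed to 2.54 and 4.80 TPM for WT and 23.8 and 20.0 TPM for K823R, with Prl and Cga at 0 in at least 1 library. Like Gm43110, the sums of the pituitary, central glia and macrophage markers were higher in both K823R libraries than in both WT libraries, and their part in the result was not tested. The 5 germ cell markers, which include Ubl4b, summed to 1.60 to 2.42 TPM in every library, with Prm1, Prm2, Tnp1 and Ubl4b at 0 in at least 1 library. In bulk tissue, fewer cells of a type and less RNA per cell cannot be told apart.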

How the data were processed

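Poly(A) RNA of 2 WT and 2 K823R trigeminal ganglion libraries was read from both ends, per the labels' protocols. Listed in the submitters' processing notes, without a role for each, are GRCm38.p6, HISAT2, RSEM, edgeR and fastp 0.19.5. The sources used here give neither strand setting nor annotation release. The authors deposited TPM per gene and library, each column summing to 1000000 after rounding, and a gene length. Their 2 columns of group means were not used. TPM keeps no read total, so depth is unknown and no counting interval is given.

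Differences were tested with limma 3.58.1 (R 4.3.3, variance trend, two-sided, Benjamini-Hochberg over all genes) on log2(TPM + 1) for 15390 genes averaging 1 TPM or more, a scale that understates changes of low genes. The 4 libraries left 2 residual degrees of freedom. On simulated data the fit missed part of the changes put in at every size tried and also made false calls. That simulation shuffled the replicate spreads among genes and changed only genes well above the filter. Its misses and false calls thus do not measure those in these data. With 2 libraries a group, genes short of the threshold may still differ. Identifiers were matched to GENCODE M21 (55141 of 55487), from which all sequences and coordinates come, and copies were searched with BLAST 2.17.0. Plots used matplotlib 3.10.9.

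The genes and lists were chosen with earlier results of these data known. Named were the 7 genes, up to 3 genes of smallest p and the highest and lowest of each list, the 2 nearest tested genes on each side, and the nearest rows by distance. The tables by row length, the pseudogenes inside other transcripts, the Get4 ratios, and the rows Slc10a3, Wdr70, Gm10177, Gm10241, Gm10045 and Gm12112 were added after the values had been seen. Alternatives covered the pseudocount, filter, scaling, variance model, replicate block, lengths and each library left out.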

Additional observations from a re-analysis of the deposited data

How the results depend on the processing

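The log2 differences of Get4 and Bag6 kept their direction and stayed short of the threshold in all 13 alternatives each. With a library left out Get4 ranged from -0.27 to -0.05 and Bag6 from 0.08 to 0.24. Ubl4a ranged from -0.0471 to 0.0998, Asna1 from -0.0262 to 0.0840, Caml from -0.122 to 0.152 and Sgta from -0.0456 to 0.109, and the Get4 locus with Gm43110 counted in from -0.166 to 0.0456. Caml was also at -0.00778 with median-of-ratios scaling. The 1 gene past the threshold in the reported fit was Gm43110, whose values chose the set, so the counts that follow support nothing about it. The number of genes past the threshold went from 1 to 0 with no filter, with no variance trend, with the replicate block and without any single library (0 in each of the 4). It was 2 with a filter at 10 TPM and 4 with robust empirical Bayes, with Gm43110 included in both. At an unadjusted p under 0.05 the count was 732 in the reported fit, 916 with the replicate block and 574 to 1111 with a library left out. Same-numbered libraries deviated together with a correlation of 0.05 across genes. That value alone cannot show whether the numbers pair the samples, and the reported fit treated them as unpaired. With a library left out, list medians ranged from -0.0464 to 0.10 (GET route), -0.0715 to -0.00626 (ER membrane complex), -0.0488 to 0.0140 (SRP, Sec61 and SND), -0.00973 to 0.131 (BAG6-linked), -0.00537 to 0.0258 (secretory) and -0.0585 to -0.0109 (mitochondria and peroxisomes). Median-of-ratios scaling gave -0.0407 for SRP, Sec61 and SND and -0.0595 for mitochondria and peroxisomes, and quantile normalization gave -0.00753 for the secretory list. The 2 rows at 0 in both WT libraries and at 10 or 40 TPM or more in both K823R libraries were both under 300 bases, and 1 of them was under 200 bases. The locus was fitted under 10 alternatives and each single gene under 13. The cause of these shifts was not tested.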
